A study of Homo sapiens with 38 samples.

Results

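Binding of DPPA4 that H661 cells make themselves was set against binding of DPPA4 introduced into H1299 cells, with 1 antibody in both lines. Enriched regions, called domains, were compared by position between the parental H661 library and the 2 replicate libraries of H1299. A domain was found in another list where the regions shared at least 25% of the shorter one. Of 35818 H661 domains, 8543 were found in both H1299 replicates (23.9%) and are called shared. Another 15400 H661 domains were absent in both replicates (43%) and are called H661 only. The H1299 consensus, which merged overlapping domains of both replicates, held 9619 domains, of which 2138 were absent in H661 (22.2%) and are called H1299 only. These 3 classes held 26081 sites in all.

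DPPA2 and DPPA4 are small nuclear proteins with a SAP domain, a fold that contacts DNA, and they are found together as a heterodimer. They are normally made in early embryos, pluripotent stem cells and the germline, where they mark CpG-rich promoters and keep developmental genes in a poised state between the Polycomb and Trithorax systems. Most somatic cells lack both proteins, and some tumours express them again. The comparison asks which sites DPPA4 occupies in a tumour line that makes it and which it takes up when it is supplied to a line that lacks it.

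The series used CUT&RUN, in which an antibody tethers a nuclease to its target in unfixed cells and the DNA cut free is sequenced, and held 38 libraries. H661 (NCI-H661) is a lung large cell carcinoma line, and the library used here came from untreated parental cells in asynchronous culture. H1299 (NCI-H1299) is labelled lung adenocarcinoma and by the study does not express DPPA2 or DPPA4 itself. Its derivative held doxycycline-inducible transgenes for DPPA2 with a Flag tag and for DPPA4 with a V5 tag, and had received 2 µg/mL doxycycline for 7 days. All 3 libraries were made with the N-terminal rabbit antibody abcepta AP1438a and were set against rabbit IgG of the same line. The lines thus differed in origin, in the DPPA4 source, in the tag and in the doxycycline, which cannot be told apart. Other libraries used below were H661 lines with inducible hairpins against DPPA4 (shDPPA4) or against both genes (shDPPA2+4), given water or 2 µg/mL doxycycline over 7 days, of which the water arms are called hairpin controls. Binding data hold no marker expression, so neither line could be checked against its label. H661 had 1 library, and for the 2 H1299 replicates a separate culture is not stated in the labels, so their spread may be technical. With 1 library against 2 an exact permutation test cannot go below p = 0.333, so no test was made, and the 95% intervals given are exact binomial ones that cover counting error only.

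The 3 libraries differed in the reads held by their domains, and this bears on every count. The H661 domains held 668336 reads with a median of 11 a domain. H1299 replicate 1 had 39839 domains with 2873001 reads and a median of 18. H1299 replicate 2 had 14563 domains with 216593 reads and a median of 10. Replicate 1 thus held 13.3 times the reads of replicate 2 in domains, although its library was only 1.2 times as large by the scaling in the deposited fold changes. Of replicate 2 domains, 85.3% were found in replicate 1, so replicate 2 was mostly a subset of it. The replicates had the same IgG counts in 45 of 45 domains with identical ends, which shows that they were set against 1 IgG library.

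DNA is shown under some of the first domains of each class by reads per kb, so that its CpG content can be read. The sequences below are from the reference build hg38, plus strand, with each CpG dinucleotide in capitals, and each lies in the central 300 bases of its domain, outside annotated UTRs. The H1299-only domains are merged regions of both replicates. The sequences at PDCD2 and near SLC1A4 lie inside the replicate 1 domain but outside the replicate 2 domain. They are thus not DNA under a domain of both replicates. The stretches run from 54 to 300 bases, so their CpG counts cannot be compared without their lengths. The first 3 are shared. Those at ITFG2 and BANP lie at promoters, over a coding exon of ITFG2 and in an intron of BANP. They hold 13 and 12 CpGs in 140 and 173 bases. The third lies 23.5 kb from the start site of SPDYE8, the nearest protein-coding gene, in no annotated exon, and holds 19.
ITFG2, chr12:2812761-2812900: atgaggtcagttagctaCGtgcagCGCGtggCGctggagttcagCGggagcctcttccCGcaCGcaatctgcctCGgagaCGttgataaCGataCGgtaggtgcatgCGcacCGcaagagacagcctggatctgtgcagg
BANP, chr16:87950928-87951100: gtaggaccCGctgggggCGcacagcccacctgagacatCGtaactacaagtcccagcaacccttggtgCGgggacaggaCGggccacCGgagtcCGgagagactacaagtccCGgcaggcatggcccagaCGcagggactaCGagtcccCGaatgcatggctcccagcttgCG
distal near SPDYE8, chr7:73006201-73006400: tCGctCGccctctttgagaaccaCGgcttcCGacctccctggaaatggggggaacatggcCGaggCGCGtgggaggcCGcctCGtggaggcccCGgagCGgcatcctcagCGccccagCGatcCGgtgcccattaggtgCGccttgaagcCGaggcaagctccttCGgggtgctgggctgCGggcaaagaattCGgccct
The next 3 are H661 only. Those at FUT1 and PDLIM4 lie at promoters, over a noncoding exon of FUT1 and in an intron of the neighbouring P4HA2. They hold 8 and 10 CpGs in 100 bases each. The third lies 132 kb from NIPA1 in no annotated exon and holds 2.
FUT1, chr19:48752801-48752900: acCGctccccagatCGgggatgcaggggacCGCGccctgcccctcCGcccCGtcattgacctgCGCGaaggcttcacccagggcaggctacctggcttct
PDLIM4, chr5:132257401-132257500: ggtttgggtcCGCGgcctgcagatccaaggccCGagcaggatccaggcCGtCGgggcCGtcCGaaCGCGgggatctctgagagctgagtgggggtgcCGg
distal near NIPA1, chr15:22654201-22654300: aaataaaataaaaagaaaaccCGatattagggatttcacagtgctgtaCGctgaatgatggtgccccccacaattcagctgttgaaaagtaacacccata
The last 3 are H1299 only. The first lies between the start sites of THAP4 and ATG4B and holds 9 CpGs in 54 bases. The second overlaps a coding exon of PDCD2, inside its gene, and holds 2. The third lies 158 kb from SLC1A4 in no annotated exon and holds 7.
THAP4 and ATG4B, chr2:241637159-241637212: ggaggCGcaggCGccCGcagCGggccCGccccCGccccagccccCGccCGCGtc
PDCD2, chr6:170583610-170583900: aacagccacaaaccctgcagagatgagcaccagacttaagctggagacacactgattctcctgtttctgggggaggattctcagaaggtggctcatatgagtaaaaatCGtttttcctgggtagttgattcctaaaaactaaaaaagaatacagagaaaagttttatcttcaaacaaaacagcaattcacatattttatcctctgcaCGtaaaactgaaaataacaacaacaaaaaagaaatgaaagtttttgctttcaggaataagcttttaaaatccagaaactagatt
distal near SLC1A4, chr2:64831501-64831800: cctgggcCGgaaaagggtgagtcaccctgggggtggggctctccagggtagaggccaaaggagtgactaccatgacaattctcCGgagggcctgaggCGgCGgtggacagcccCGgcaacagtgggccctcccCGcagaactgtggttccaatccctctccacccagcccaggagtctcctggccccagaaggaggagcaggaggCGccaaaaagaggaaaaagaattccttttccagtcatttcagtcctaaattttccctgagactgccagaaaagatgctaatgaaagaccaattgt

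Most introduced DPPA4 sites that both replicates held were also sites in H661, whereas fewer than 1 in 4 H661 domains were found in both replicates. By replicate, 56.8% of H661 domains were found in replicate 1 and 24.0% in replicate 2, a mean of 40.4% ± 23.2 (SD, n = 2). Between these classes stood 11807 H661 domains found in replicate 1 alone (33%) and 68 found in replicate 2 alone (0.19%). The split of the H661 list between shared and not shared was thus set mainly by replicate 2, while the H661-only class was set by replicate 1. Without replicate 1, 76.0% of H661 domains were absent in H1299, and without replicate 2 it was 43.2%. In the other direction, 7481 of the 9619 consensus domains were found in H661 (77.8%, interval 76.9 to 78.6). Of all replicate 1 domains, 38.2% were found in H661, and of all replicate 2 domains 59.4%, so with 1 replicate in place of the consensus 61.8% or 40.6% of H1299 domains were absent in H661. With MACS2 peaks in place of domains, 8.51% of H661 peaks were found in both replicates and 32.1% in neither.

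Shared domains sat at gene starts and H661-only domains did not. A promoter was the start site of a protein-coding gene ± 1500 bp, and domains that touched no such window are called distal. Promoters held 6579 of 8543 shared domains (77.0%, interval 76.1 to 77.9), 54.8% of those found in H661 and replicate 1, and 1757 of 15400 H661-only domains (11.4%, 10.9 to 11.9). Of H661-only domains, 42.2% lay within gene bodies and 41.3% between genes, against 8.35% and 7.54% of shared domains. H1299-only domains lay between these classes, with 744 of 2138 at promoters (34.8%, 32.8 to 36.9). They were merged regions with a median width of 1200 bp, against 400 bp for H661-only and 700 bp for shared domains. Wider regions touch a promoter window more readily, and the part of width in these shares was not tested. The difference of 65.6 percentage points between shared and H661-only domains was 46.3 without replicate 1 and 52.7 without replicate 2. The difference of 23.4 points between H1299-only and H661-only domains shrank to 1.80 with replicate 2 alone and to 7.55 with replicate 1 alone, so it rests on requiring both replicates. It was 36.4 points among domains of at least 10 reads and 37.3 with lists of equal length.

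**Figure D1:**
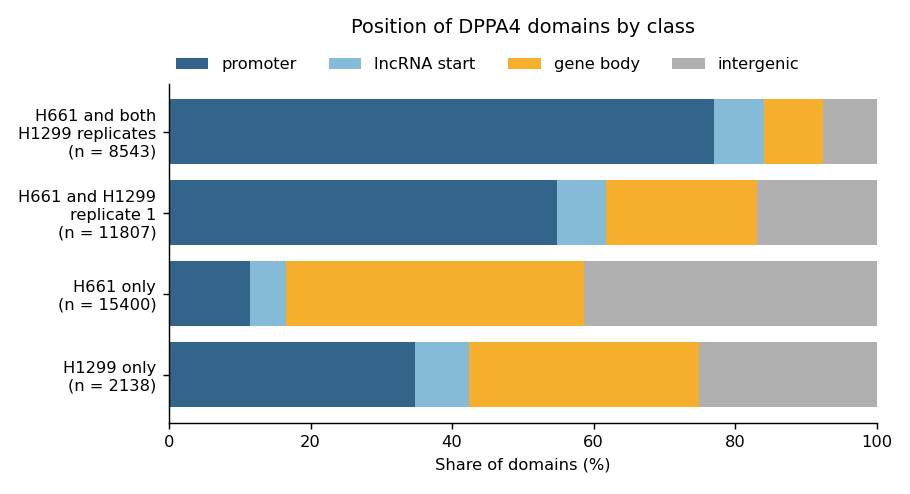
Share of domains (%, x axis) at promoters, at starts of long noncoding RNA (lncRNA) genes, in gene bodies and between genes, for the 4 classes on the y axis with the number of domains in each. The promoter share fell from 77.0% of shared domains to 54.8% of those found in replicate 1 alone and 11.4% of H661-only domains.

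The same held when it was read from H661. Of the 14825 H661 promoter domains, 44.4% were found in both replicates and 11.9% in neither. Of the 20993 distal domains, 9.36% were found in both and 65.0% in neither. The difference of 35.0 points in the shared share was 21.8 with a log2 fold above 2 and 9.49 with MACS2 peaks. CpG-rich distal domains, in which the central 500 bp had over 55% GC and an observed/expected CpG ratio over 0.75, lay in between: 36.8% of 1344 were shared, against 7.48% of the 19649 other distal domains. At promoters, 55.5% of CpG-rich and 36.2% of other domains were shared.

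Strong H661 domains were found more often than weak ones, yet promoter and distal domains with equal reads differed. Shared domains had a median of 22 reads in H661 (quartiles 12 to 40), those found in replicate 1 alone 12, and H661-only domains 9 (7 to 13). Among domains of 6 or 7 reads, 78.9% of 1815 promoter domains were found in replicate 1, against 22.3% of 5344 distal ones. Among domains of 50 to 99 reads the shares were 96.7% of 1250 and 75.4% of 558. With 100 reads or more, 10 of 286 promoter domains (3.50%) and 23 of 122 distal domains (18.9%) were H661 only. In all 9 read classes the promoter share lay above the distal one, for replicate 1 and for both replicates. This describes 1 H661 library, whose domains are not independent replicates. Domain widths were not matched, and their part in this difference was not tested.

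**Figure D2:**
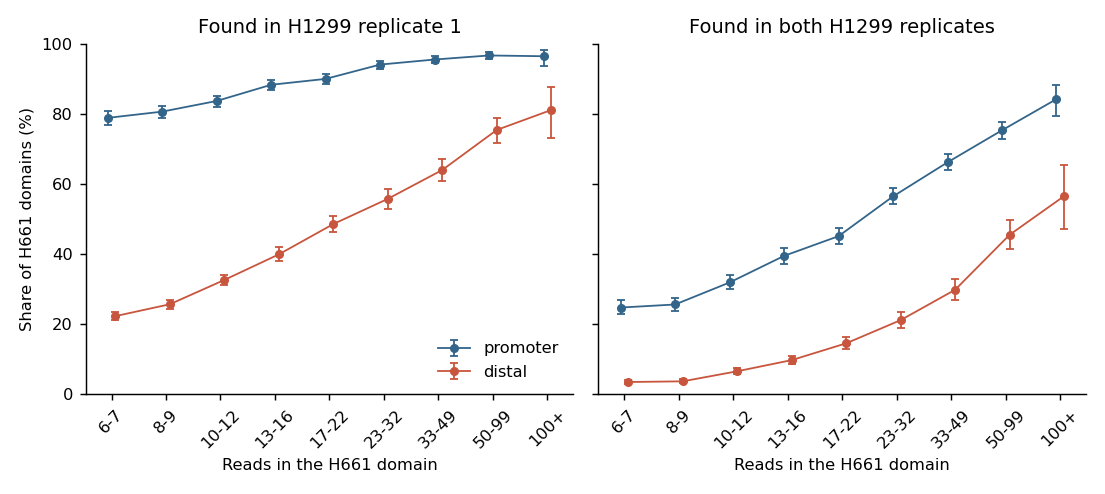
Share of H661 domains (%, y axis) found in H1299 replicate 1 (left) and in both replicates (right) by the reads in the H661 domain (x axis), for promoter and distal domains, with bars for exact 95% intervals. In every read class the promoter share lay above the distal one, from 78.9% against 22.3% at 6 or 7 reads to 96.5% against 81.1% at 100 reads or more in replicate 1.

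CpG content followed the same order. The median CpG observed/expected ratio was 0.752 in shared domains, 0.578 in those found in replicate 1 alone and 0.264 in H661-only domains, beside 0.379 in H1299-only domains. Within promoters, H1299-only and shared domains had medians of 0.804 and 0.783, and H661-only promoter domains stood lower at 0.511. Within distal domains, both unshared classes were CpG-poor, at 0.249 for H661 only and 0.266 for H1299 only, while shared distal domains had 0.578. The H1299-only class was thus made of CpG-rich promoters and CpG-poor distal sites. Of its 744 promoter domains 58.7% were CpG-rich, against 4.88% of its 1394 distal domains. Its distal domains lay a median of 34.1 kb from a start site, beside 34.0 kb for H661-only and 18.6 kb for shared distal domains.

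**Figure D3:**
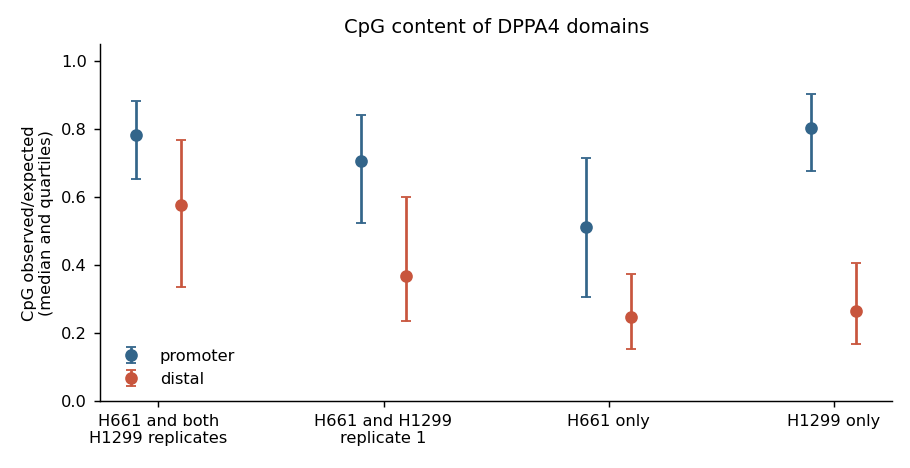
Median CpG observed/expected ratio (y axis) with quartiles as bars in the central 500 bp of promoter and distal domains of each class (x axis). Shared and H1299-only promoter domains had medians of 0.783 and 0.804, above the 0.511 of H661-only promoter domains, and distal domains had medians of 0.249 for H661 only and 0.266 for H1299 only.

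Shared sites were wider and held far more reads in H1299 replicate 1 than in the other libraries. The 8543 shared H661 domains, 700 bp in the median, corresponded to 6961 domains of replicate 1 with a median of 2000 bp and 187 reads, and to 7821 domains of replicate 2 with 500 bp and 14 reads. Reads per kb within a library were used only to order its own domains, since reads in domains differ between libraries. Across the shared domains this order agreed weakly between the lines, with Spearman's rho of 0.25 between H661 and replicate 1 and 0.24 between H661 and replicate 2, and more between the replicates, at 0.40. The points share the IgG library, width and local sequence, so these are descriptions.

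The strongest shared promoters belonged to genes of several functions. Reads are given as totals per domain, and domain widths differ between libraries, so these totals are not comparable between libraries. At ITFG2, a part of the KICSTOR complex that restrains mTORC1, H661 had 28 reads and 0 in IgG. The H1299 replicates had 569 and 93 reads there, with 19 and 13 in IgG. At BANP, whose protein binds CGCG motifs in CpG island promoters, the reads were 67 in H661, 536 in replicate 1 and 46 in replicate 2. Genes of Polycomb and histone methylation were among them. JARID2, a PRC2 accessory subunit, had 44, 605 and 63 reads in that order, and KDM6B, an H3K27 demethylase, had 8, 1069 and 19. Per kb, KDM6B had 80, 249 and 95 reads, and its H661 domain was 100 bp wide. The immediate early gene EGR1 had 82, 567 and 77 reads. MAP3K6, a stress kinase, had 276, 665 and 66, and FIS1, a mitochondrial fission factor, 65, 652 and 78. The start region of GUCD1, SNRPD3 and ENSG00000286070, which includes a core protein of spliceosomal snRNPs, had 57, 479 and 48. The domain at FAM72A and SRGAP2 had 108, 342 and 18 reads, and both genes have near-identical copies on chromosome 1, so its reads are uncertain in place. All 9 promoter domains were also found in all 4 H1299 libraries of other DPPA4-directed antibodies and in both hairpin controls of H661. The first 5 distal domains, nearest to SPDYE8, ZNF722, GRAPL, RHOU and ZNF778, had 16 to 109 reads in H661 and were likewise found in these 6 libraries. Of these, SPDYE8 and GRAPL have close copies elsewhere.

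H661-only promoters included few domains with many reads. At LSR, a lipoprotein receptor of tricellular junctions, H661 had 86 reads and 7 in IgG, a log2 fold of 3.74, over chr19:35248201-35249300. At PPP1R14A, an inhibitor of myosin phosphatase, it had 118 reads and 14 in IgG. At DLL3, an inhibitory Notch ligand found on neuroendocrine lung tumours, it had 96 reads and 15 in IgG. No H1299 DPPA4N domain lay at these sites in either replicate. LSR was found in 0 of the 4 other H1299 DPPA4 libraries, and DLL3 and PPP1R14A in 1 each. The rest of the first 10, at LURAP1, FUT1, PDLIM4, H3C6, RHBDL3, CD300LG and RASGRP4, were domains of 100 or 200 bp with 7 to 15 reads. All 10 were found in both hairpin controls of H661. DLL3, PPP1R14A and RASGRP4 lie on chromosome 19 in windows dense in H661 domains, described below. The 500 kb window of DLL3 held 137 distal H661 domains, 92.7% of them H661 only. That of PPP1R14A and RASGRP4 held 91, of which 87.9% were H661 only. The first 4 distal domains, nearest to NIPA1, GOLGA8K, ZNF33B and ERBB4, held 11 to 17 reads in 100 bp. The domain near ZNF33B lies 2229 kb from it beside the centromere, and those near NIPA1 and GOLGA8K lie in a part of chromosome 15 known for segmental duplications. The study's list of blacklisted regions was not applied here.

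Part of the H661 list lay in dense stretches of the genome. A window of 500 kb held a median of 3 distal H661 domains, and 122 windows held 30 or more, up to 141. These windows, chosen after the data were seen, held 6973 of all 35818 H661 domains (19.5%), among them 4268 of the 15400 H661-only (27.7%) and 859 of the 8543 shared domains (10.1%), beside 110 of the 2138 H1299-only domains (5.15%). Since the windows were picked by distal H661 domains, and H661-only domains were mostly distal, the choice of windows largely fixed the order of these shares. IgG was also higher there. H661-only domains had 5.06 IgG reads per kb inside the windows and 3.31 outside, whereas their DPPA4 reads per kb were 24.9 and 24.1. Chromosomes 19, 20 and 5 held the most, with 14, 13 and 14 windows. Copy number was not measured, and the part of these windows in the class was not tested. Outside them 11132 H661-only domains remained, of which 13.6% lay at promoters, and 38.6% of H661 domains were absent in both replicates.

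The longest runs of neighbouring H661 domains with none found in either H1299 replicate lay in or beside such windows. A run of 355 domains covered chr5:21483101-31487800, with the cadherin genes CDH12, CDH10, CDH9 and CDH6 and the meiotic methyltransferase PRDM9. It held 35.5 domains per Mb against 11.8 over the genome, and only 5 of its domains were at promoters. A run of 118 domains covered chr21:15731101-17437400 with no protein-coding gene inside. A run of 114 domains covered the collagen genes COL3A1 and COL5A2 at chr2:188295101-189439800, and the fourth, 112 domains, lay around SALL4, a zinc finger factor of pluripotent cells, at chr20:51770101-52104000. The 12 H1299 libraries of the series, of which 2 set the class, had 0 domains in the chromosome 21 and COL3A1 runs, 3 in the SALL4 run and 16 in the chromosome 5 run. Every other H661 antibody had domains in the chromosome 5 run, among them DPPA2 with 332, and EP300, an acetyltransferase, with 426 and 428 in the 2 hairpin control lines. The doxycycline arms of these lines had 384 and 403 DPPA4N domains there, beside 373 and 278 in the water arms. In the chromosome 21 and COL3A1 runs the DPPA4N counts in doxycycline were 138 to 157, beside 115 to 152 in water. IgG in the first 4 runs was 4.80 to 5.67 reads per kb, above the 3.84 over all H661-only domains. Together the 10 longest runs held 1107 domains, 7.19% of the class.

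By chromosome, the H661-only share ran from 28.5% on chromosome 9 to 59.5% on chromosome 5. Chromosomes 21 and 20 had 55.2% and 53.2%. Outside the dense windows chromosome 5 had 47.9%, chromosome 20 44.7% and chromosome 21 39.9%, each lower than with them. The shared share was lowest on the X chromosome, at 11.4%. The H1299-only share of the consensus ran from 13.6% on chromosome 22 to 33.5% on chromosome 4.

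H1299-only sites carried more reads in replicate 1. The bidirectional start of THAP4 and ATG4B, the protease that processes LC3 in autophagy, had 739 reads in replicate 1 and 37 in replicate 2, with 13 and 3 in IgG, and no domain in the parental H661 library. PDCD2, a ribosome assembly factor, had 628 and 64 reads. PEF1, a calcium-binding protein, had 249 and 6, and CLN3, a lysosomal membrane protein, had 88 and 8. The membrane protein gene STOM had 203 and 12 reads, the start of PLEKHJ1 and the splicing factor SF3A2 402 and 11, and that of PSMD9, a proteasome assembly chaperone, and ENSG00000256950 227 and 11. These 7 domains were absent from the parental H661 list but were found in both hairpin controls of H661. Another DPPA4 antibody, ab154642, also found them in parental H661, except those at PDCD2 and STOM. SH3TC2, a gene known from myelinating Schwann cells, stood apart. Its CpG-poor start, with an observed/expected ratio of 0.124, had 247 and 56 reads in H1299 and no domain in either hairpin control. Of the first 5 distal domains, those near BDP1, SPATA31A6 and LAPTM5 were found in both hairpin controls and those near SLC1A4 and TPD52 in neither. SPATA31A6 belongs to a family of close copies.

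Runs of H1299-only domains were short. One of 13 domains covered SORCS2, PSAPL1 and AFAP1 at chr4:7070001-7957300, and 7 parental H661 domains lay inside it beside them. Another of 12 domains covered ADRA1B and TTC1 at chr5:159515601-160084100, with no domain of the parental H661 library. Of the 12 H1299 libraries, 2 had domains there by the rule, and the other 10 had domains in both runs as well. In H661, MTF2, a DNA-binding subunit of PRC2, had 107 and 87 domains in the ADRA1B run in the 2 hairpin control lines, and 3 and 5 in the SORCS2 run. These MTF2 lists were long, at 105640 and 101461 domains.

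Libraries the rule did not use gave different shares for the 2 unshared classes. By the rule, H1299-only domains were present in 2 libraries of the H1299 line and H661-only domains absent from both. The order of the classes in other H1299 libraries was thus largely set by the rule. The classes also differed in median width, at 1200 and 400 bp, and the part of width in the overlaps was not tested. Among H1299 libraries, shared domains were found at 99.6% and 89.8% with the V5 antibody, which sees only the introduced DPPA4, and at 96.6% and 92.2% with ab154642, another DPPA4 antibody, in replicates 1 and 2. H1299-only domains were found at 93.5% and 62.5% with V5 and at 82.5% and 67.6% with ab154642. H661-only domains were found at 12.0% and 2.69% with V5 and at 1.27% and 1.85% with ab154642. At least 1 of these 4 libraries held 14.4% of H661-only domains and 96.0% of H1299-only ones, and all 4 held 6 of 15400 (0.0390%) and 1025 of 2138 (47.9%). The 14.4% was 48.5% where replicate 2 alone set the classes, 46.3% with lists of equal length and 5.67% with MACS2 peaks. At H661-only promoters, at least 1 held 30.2%, of which most came from V5 replicate 1, with 26.1%. DPPA2 in H1299 gave the same order, with 98.7%, 87.2% and 6.27% of shared, H1299-only and H661-only domains in replicate 1 and 76.5%, 52.2% and 1.11% in replicate 2. The Flag antibodies, which see the introduced DPPA2, ranged from 10.1% to 97.5% of shared domains, from 4.58% to 82.8% of H1299-only domains and from 0.221% to 3.01% of H661-only ones.

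In other DPPA4 and DPPA2 libraries of H661 the order of the 2 unshared classes was reversed. This order was also largely set by the rule, which took H661-only domains from the parental H661 library and H1299-only domains absent from it. The N-terminal antibody in water-treated shDPPA4 and shDPPA2+4 cells found 75.4% and 64.6% of H661-only domains, 99.7% and 99.2% of shared domains and 58.7% and 46.1% of H1299-only domains. At promoters, these libraries found 85.2% and 79.6% of the H1299-only domains, close to their 92.3% and 84.7% of H661-only ones. At distal sites they found 44.5% and 28.3% of H1299-only domains against 73.2% and 62.0% of H661-only ones. The shDPPA4 water list, with 76174 domains, was longer than the parental list of 35818. In parental H661, ab154642 found 90.4%, 49.4% and 23.6% of shared, H661-only and H1299-only domains, and DPPA2 found 84.8%, 47.5% and 21.0%. A further DPPA4 antibody in these cells, labelled DPPA4C, found only 40.1%, 12.3% and 1.78%, from a shorter list of 13598 domains. After doxycycline the N-terminal antibody still found 45.5% of H661-only domains in shDPPA4 cells and 49.1% in shDPPA2+4 cells, beside 93.1% and 96.3% of shared domains. In no hairpin control and by no other DPPA4 antibody of H661 were 18.0% of H661-only domains found, 4.95% of those at promoters and 19.7% of distal ones.

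**Figure D4:**
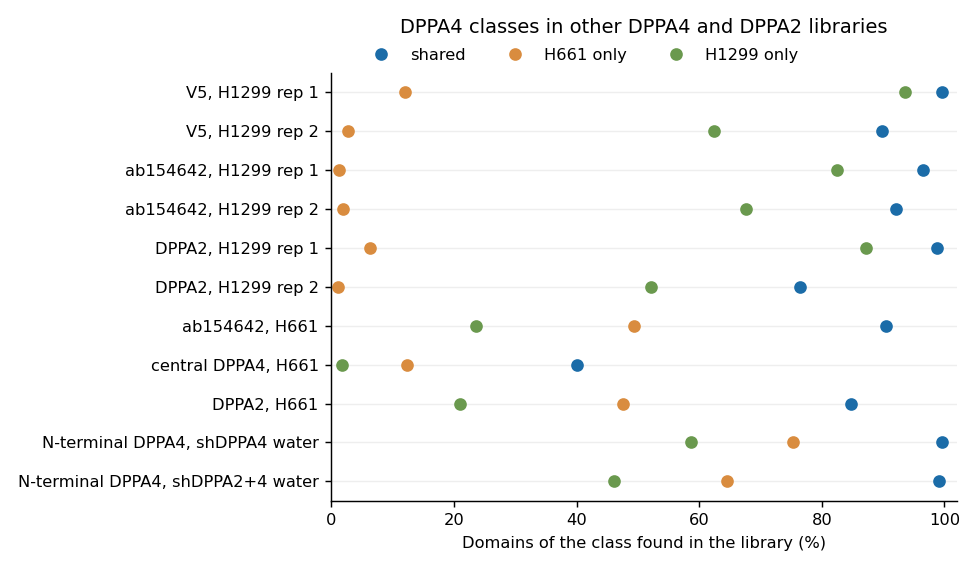
Share of shared, H661-only and H1299-only domains (%, x axis) found in each of 11 other DPPA4 or DPPA2 libraries (y axis, 1 point per class). In the 6 H1299 libraries the H661-only points lay at 12.0% or lower and the H1299-only points between 52.2% and 93.5%, while in the 2 hairpin control libraries at the bottom all H1299-only points were at 46.1% or higher.

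Promoters held in one line across several DPPA4 libraries were listed for each line. On the H661 side, 605 of the 1757 H661-only promoter domains were found in both hairpin controls and with ab154642 and in none of the 4 V5 or ab154642 libraries of H1299. On the H1299 side, 62 of the 744 H1299-only promoter domains were found in all 4 of these libraries and in no hairpin control and with no other DPPA4 antibody in parental H661. The 2 sets, chosen after the data were seen, differ in the number of libraries they must pass, so their sizes are not comparable. The strongest of the 62 with a log2 fold of 2 or more in both replicates, after SH3TC2, were at MMP16, a membrane metalloproteinase, with 289 and 45 reads, PSD3 with 233 and 8, GPC6, a glypican, with 316 and 8, and TDRD9, a germline helicase of the piRNA pathway, with 81 and 13 reads and 0 in IgG. NEGR1, STAMBPL1, TRHDE, ZNF844 and ADRA1B followed. On the H661 side, besides LSR and a second, smaller domain at DLL3 with 43 reads, sites of few reads were among the first, such as GPR158 with 12 and UNC5B, CADM1 and FGF9 with 6 each.

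Other proteins in H661 are given for both sets as a description, since the 62 were picked for lacking DPPA4 domains in these same hairpin control lines and the 605 for having them. The sets also differed in width, with medians of 1650 and 600 bp, and in CpG-rich domains, with 53.2% and 20.3%, and the part of these in the values was not tested. MTF2 was found at 47 of 62 H1299-side promoters in each of the 2 hairpin control lines (75.8%, 63.3 to 85.8) and EP300 at 0 of 62 in both, which allows a share of up to 5.78%. RING1B, the catalytic subunit of PRC1, was found at 22 and 24. Of the 605 H661-side promoters, MTF2 was found at 51.6% and 49.9%, RING1B at 65.8% and 59.0% and EP300 at 33.6% and 41.2%. Over all 744 H1299-only promoter domains EP300 was found at 51.7% and 54.8%, MTF2 at 71.6% and 72.6% and RING1B at 75.3% and 69.0%. The MTF2 share of the 62 was thus close to that of all 744, and their RING1B share was lower. The MTF2 lists were the long ones of 105640 and 101461 domains. Over all positions, shared domains had EP300 at 77.0% and 81.5%, RING1B at 89.8% and 82.7% and MTF2 at 75.6% and 74.2%. They had PCGF1, a subunit of variant PRC1, at 40.7% and 37.8%. H661-only domains of all positions, mostly distal, had EP300 at 20.6% and 25.1%, RING1B at 29.1% and 20.3% and MTF2 at 13.6% and 12.6%. At H661-only promoter domains EP300 was found at 19.6% and 23.8%, RING1B at 48.8% and 43.4% and MTF2 at 43.9% and 44.1%. No such library of H1299 was used here.

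Counted by promoter rather than by domain, 6724 of 19970 protein-coding promoters were shared (33.7%), 675 were H661 only (3.38%) and 758 H1299 only (3.8%), while 3617 were touched in H661 and replicate 1 (18.1%), 1750 in replicate 1 alone (8.76%) and 6423 in none (32.2%). Another 6 were touched in H661 and replicate 2 (0.03%) and 17 in replicate 2 alone (0.0851%). Shared promoters had a median CpG ratio of 0.864, those of H1299 only 0.843, of H661 only 0.740 and of none 0.291. A promoter was placed by which libraries had any domain touching its window, so the domains at a shared promoter need not overlap each other. Against these shares, 15 gene lists were read as counts only, with classes by promoter.

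The cell cycle, proteasome and autophagy, ribosomal and Polycomb lists together held 1 H661-only promoter. Of 42 cell cycle and DNA replication genes 28 were shared, such as AURKA and CCND1, and 1 was H661 only, CDKN2A, which encodes the inhibitors p16 and p14ARF, with 18 reads. Of 51 proteasome and autophagy genes 28 were shared and 7 were H1299 only, among them ATG4B, BECN1, PSMA1 and PSMB1. Of 76 ribosomal protein genes 23 were shared, 29 were touched in H661 and replicate 1, 6 were H1299 only, such as RPL11 and RPS10, and 18 were touched in replicate 1 alone. Of 36 genes for Polycomb subunits 19 were shared, among them BMI1, and L3MBTL2, PCGF3 and PHC3 were H1299 only. None of the ribosomal, proteasome and autophagy or Polycomb genes was H661 only, beside 3.38% of all promoters. Their exact intervals reached 4.74%, 6.98% and 9.74%, so each took in that share.

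Developmental lists held more H661-only than H1299-only promoters. Of 76 developmental transcription factors 34 were shared, among them DLX1, DLX2, DLX4 and DLX5, 10 were H661 only and 1 was H1299 only. HAND1, a heart and trophoblast factor, had 38 reads in H661, IRX2 42, PAX2 22 and EMX2 15, and none had a domain in the 2 H1299 DPPA4N libraries. POU4F1, a sensory neuron factor, had 96 and 6 reads in the H1299 replicates and no domain in the parental H661 library. Other libraries were not read for the gene lists. Of 39 HOX genes 17 were shared, such as HOXA10 with 84, 261 and 19 reads, and 7 were H661 only, among them HOXA2 with 9 and HOXC6 with 98 reads. Of 30 pluripotency and early embryo genes 7 were H661 only, 3 were shared and none was H1299 only. DPPA2, DPPA4, FGF4 and L1TD1 were among the 7 and had 6 to 19 reads in their strongest H661 domain. DNMT3B, KLF2 and KLF5 were shared as promoters, although the H661 domain at KLF5 did not overlap the domains of the replicates there. SOX2 had 43 reads in H661 and 188 in replicate 1 with no domain in replicate 2.

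In signalling and lineage lists both unshared classes held few genes, and several shares stood above those of all promoters, within wide intervals. Among 60 Wnt genes 21 were shared, including AXIN1, AXIN2 and DKK1. APC, SFRP5 and WNT7A were H661 only, with 20, 14 and 9 reads, and RSPO3, SFRP1 and WLS were H1299 only, with 70, 39 and 85 reads in replicate 1. Among 31 epithelial and mesenchymal genes both kinds were found on both sides. H661 only were 9.68% of them (interval 2.04 to 25.8) and H1299 only 6.45% (0.791 to 21.4). EPCAM, ESRP1 and OVOL2, which are epithelial, were H661 only with 7 to 17 reads, but the epithelial CLDN4, KRT18 and ST14 were touched in replicate 1 alone and CLDN7, ESRP2 and GRHL1 were shared. CDH2 and FN1, which are mesenchymal, were H1299 only with 178 and 63 reads in replicate 1, but COL1A1 was shared and AXL and TGFB2 were touched in H661 and replicate 1. Among 23 lung lineage genes 5 were shared, including FOXA1 and GATA6, and none was in an unshared class, with intervals up to 14.8%. NKX2-1, the lung and thyroid lineage factor, had 559 reads and 87 in IgG in H661, and 51 reads in replicate 1. Per kb, the reads were 51.8 in H661 and 30 in replicate 1. Of 17 neuroendocrine genes DLL3 and NEUROD2 were H661 only and CHGB and UCHL1 H1299 only. Each class was 11.8% of the list (interval 1.46 to 36.4), beside 3.38% and 3.8% of all promoters. Of 53 potassium channel genes 6 were shared, 14 were touched in H661 and replicate 1, 2 were H661 only and 1 was H1299 only.

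Germline and immune genes were mostly untouched. Of 36 germline genes 2 were shared, SYCP2 and TEX15, 4 were H661 only, such as HORMAD2 and REC8, and 3 were H1299 only, HORMAD1, TDRD9 and TEX14, while 19 were touched in none. Of 28 cancer-testis genes of the X chromosome, whose close copies make read placement uncertain, 24 were touched in none, and SAGE1 was H661 only with 12 reads. None of 20 immune cell markers was touched in any of the 3 libraries.

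At the DPPA2 and DPPA4 genes themselves, H661 had domains at both start sites and H1299 had none there. The H661 domain over the DPPA2 start, chr3:109316501-109317200, had 19 reads and 2 in IgG, with smaller domains of 7 and 8 reads on its sides. Near the DPPA4 start, a domain of 11 reads lay 0.795 kb inside the gene and one of 12 reads lay before it. H1299 replicate 1 had 2 domains of 14 and 10 reads inside DPPA2 and 2 of 10 and 7 reads inside DPPA4, 3.87 to 8.55 kb from the start, and replicate 2 had none. The transgenes carry exons of both genes, so reads from the transgenes and from the native genes cannot be told apart.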

How the data were processed

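CUT&RUN was profiled in parental H661 cells (1 library) and in doxycycline-treated H1299 cells (2 replicates) with the N-terminal DPPA4 antibody. Reads were trimmed by the authors with Trim Galore (0.6.6 in the submitters' processing notes), aligned to hg38 with BWA (0.7.13) and called per library, without pooling, with EPIC2, which joins enriched bins of 100 bp, and with MACS2. The deposited EPIC2 files hold raw counts of the library and of IgG per domain, the log2 fold change over IgG after scaling for library size, and the p-value and FDR of the authors. IgG counts of 0 entered the deposited log2 fold change as 0.25. The score in the deposited files repeats other columns and was not used. The deposited MACS2 files hold a fold enrichment, which is a ratio, and p-values and q-values as −log10, and the authors' MACS2 peaks were used only as an alternative.

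Domains with FDR below 0.05 and log2 fold above 1 on the autosomes and X were kept, which left 35818, 39839 and 14563. The study's blacklist was not at hand. Promoters were start sites of 19970 protein-coding genes (GENCODE 44) ± 1500 bp. Domains were ordered by reads per kb among those with a log2 fold of at least 2. Named were the first 10 promoter genes and 5 distal domains (over 5 kb from a start site) of each class, the first 4 genes by symbol of each class in 15 gene lists, and genes in the 3 longest runs of each kind. The SALL4 run and the genes of the 2 sets of promoters carried by one line were picked after values were seen where this rule does not name them. Some items that this rule names are not reported here. Sequences are the longest stretch of at least 50 bases outside annotated UTRs, and the next domain was taken where there was none. The classes, gene lists and alternatives were chosen with earlier results of these data known. Overlap and class calls were tested on simulated regions. Shares carry exact binomial 95% intervals (SciPy 1.17.1) for counting error only. Read totals outside domains were not used, apart from the library scaling in the deposited fold changes. Python 3.11.15, pysam 0.24.0 and samtools 1.23.1 were used.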

Additional observations from a re-analysis of the deposited data

How the results depend on the processing

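Without either H1299 replicate in turn, the share of H661 domains found in H1299 ran from 24.0% to 56.8% and the share absent from 43.2% to 76.0%, the share of H1299 domains absent in H661 from 40.6% to 61.8%, the promoter share of shared minus H661-only domains from 46.3 to 52.7 points, that of H1299-only minus H661-only domains from 1.80 to 7.55 points, the shared share of promoter minus distal H661 domains from 34.8 to 53.3 points, the CpG difference between shared and H661-only domains from 0.398 to 0.407, the share of H661-only domains found with V5 or ab154642 in H1299 from 14.6% to 48.5%, and the share of H1299-only domains found in the hairpin controls from 50.2% to 56.2%. With each list cut to the length of the shortest by log2 fold, these were 42.7% for H1299 domains absent in H661, 51.6, 37.3 and 21.96 points for the 3 differences, 0.411 for CpG, 46.3% and 89.5%. With MACS2 peaks the promoter difference of H1299-only and H661-only was 30.9 points, that of promoter and distal domains 9.49 points, the CpG difference 0.477 and the hairpin control share 67.1%. With a log2 fold above 2 the promoter and distal difference was 21.8 points and the CpG difference 0.479, as it was with CpG counted in the central 1000 bp. With at least 10 reads per domain, chosen after the data were seen, the values were 36.4 points for H1299-only minus H661-only promoter share, 0.473 for CpG and 74.3% in the hairpin controls. The cause of these moves was not tested. Counts moved with the list: MACS2 gave 1698 shared, 6402 H661-only and 353 H1299-only peaks.

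No paired analysis was possible because H661 had 1 library and the classes came from no test. A missing domain in replicate 2, which held the fewest reads in domains, is not evidence that DPPA4 was absent there. The same applies to any library with a median of 10 or 11 reads a domain.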
